A study of Sus scrofa with 30 samples.

Results

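The genes described here belong to the growth hormone and insulin-like growth factor (IGF) axis of the pig liver. They were chosen by identity and not by their values, from a list of 7 human protein identifiers that stand for IGF1, IGFBP1, IGFBP2, IGFBP3, IGFBP4, GHR and IGFALS. Of these 7 genes, 4 had a row among the 19864 rows of the authors' expression table: GHR (ENSP00000230882), IGFBP1 (ENSP00000275525), IGFBP2 (ENSP00000233809) and IGFBP4 (ENSP00000269593). The other 3, the ligand IGF1, the main serum carrier IGFBP3 and the acid-labile subunit IGFALS, were not analysed here. The table gives the identifiers without gene names, so the symbols are those of the list.

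Growth hormone acts on the liver through the growth hormone receptor, GHR, and thereby drives hepatic production of IGF1, the circulating growth factor. In blood the IGFs travel bound to IGF binding proteins, which prolong their half-life and set how much of them can reach the IGF receptor. In well-known physiology, underfeeding lowers hepatic growth hormone signalling and IGF1, while IGFBP1, a liver protein whose gene is repressed by insulin, and IGFBP2 rise in the circulation. IGFBP4 binds IGFs and inhibits them until proteases such as PAPPA cleave it.

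The livers came from 30 female pigs, 3 randomly chosen animals in each of 10 groups. Piglets had a normal birth weight (N, 1.4 to 1.6 kg) or a low birth weight (U, 0.8 to 1.1 kg), were suckled until weaning on day 28, and were then housed individually with free access to feed. N and U pigs were sampled before restriction at T1 (day 76 in the sample labels, day 75 in the series text). At T2 (day 97 or 98) the restricted pigs, NR and UR, had received 50% of the ad libitum intake for 3 weeks, and their controls, NK and UK, had fed ad libitum. At T3 all 4 of these groups had fed ad libitum for a further 5 weeks. The sample labels give day 103 for T3 and the series text day 131, and the names T1, T2 and T3 are used below. Day 131 is close to 5 weeks after T2, and day 103 is not. The birth weight groups were selected within litters, and the labels do not say which pigs were littermates.

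Each row of the table was the median of 3 neighbouring 60-base probes for 95.8% of the rows. All 4 genes were among these, and 1 probe of the 3 carried the median on nearly every array. The 3 GHR probes are given whole because GHR is the gene with the largest birth weight difference relative to its error described below, and the second one carried its row's value on 29 of 30 arrays. They are printed as listed on the array, 5′ to 3′.
GHR probe PigEx0034390: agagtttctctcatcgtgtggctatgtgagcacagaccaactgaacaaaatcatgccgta
GHR probe PigEx0034391: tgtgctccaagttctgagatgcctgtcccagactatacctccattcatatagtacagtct
GHR probe PigEx0034392: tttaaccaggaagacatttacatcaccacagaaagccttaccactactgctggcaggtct
For each binding protein the first 30 bases of the probe that carried the median are given, to identify it. That probe carried the median on 29 of 30 arrays for IGFBP1 and IGFBP2 and on all 30 for IGFBP4.
IGFBP1 probe PigEx0032768: cagggaaagttcaaggctggtcatatagtc
IGFBP2 probe PigEx0041571: tcccccctccccagctggagatgcccagct
IGFBP4 probe PigEx0006980: atgccagctttagttttcagccctgggggc
All 12 probes were well above background on all 30 arrays, none was saturated, and none carried an outlier mark. Their place within the transcripts and the genome was not determined here.

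The share of probes well above background ran from 53.6% to 74.3% over the arrays (median 66.0%). In the table the 3 columns of N at T1 each held the values of another N array of T1, which leaves the group's mean and spread as they are. Its values were comparable only within 4 sets of arrays that had been normalized together (all of T1, the N pigs of T2, the U pigs of T2, and all of T3), and groups were compared only within these sets or as differences of such comparisons. At T3 the replicate 3 arrays of all 4 groups shared slide 6 and scan 4, and replicate 1 of NK was the only array of scan 3. Markers of the liver's cell types and the other genes of the pathway could not be placed on rows, because neither the table nor the reference tables used here pair its identifiers with names. In whole liver RNA, fewer cells of a type and less RNA per cell cannot be told apart.

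None of the 4 genes was called in any of the 12 comparisons, at a limma adjusted p under 0.05 (Benjamini-Hochberg over all rows). The background was as empty, with 0 of 19864 rows (0%) called in each comparison. At an unadjusted p under 0.05, U against N at T1 had 568 rows (2.86%). Restriction at T2 had 1445 rows (7.27%) in normal and 828 (4.17%) in low birth weight pigs, 1674 (8.43%) when averaged over the birth weights, and 675 (3.40%) for the difference between them. Former restriction at T3 had 915 (4.61%) and 379 (1.91%), with 525 (2.64%) for the average and 598 (3.01%) for the difference. Birth weight at T3 had 683 (3.44%) in controls and 415 (2.09%) in formerly restricted pigs, and the change of the restriction effect from T2 to T3 had 718 (3.61%). Of the 4 genes, 1 had an unadjusted p under 0.05 in 1 comparison, namely GHR in UK against NK at T3, and the others in none. Ranges of 2 groups did not overlap for 2 of the 4 genes in UK against NK at T3, 1 higher (2.28% of all rows) and 1 lower (5.18%), and for 0 of 4 genes in the other comparisons of 2 groups. In those, the rows wholly higher and wholly lower made up 2.82% and 2.96% for U against N at T1, 4.09% and 7.17% for NR against NK at T2, and 3.96% and 5.13% for UR against UK at T2. At T3 they made up 3.01% and 5.17% for NR against NK, 3.55% and 2.06% for UR against UK, and 4.34% and 2.63% for UR against NR. The interval of each difference below says how large a change these data leave possible.

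**Figure D1:**
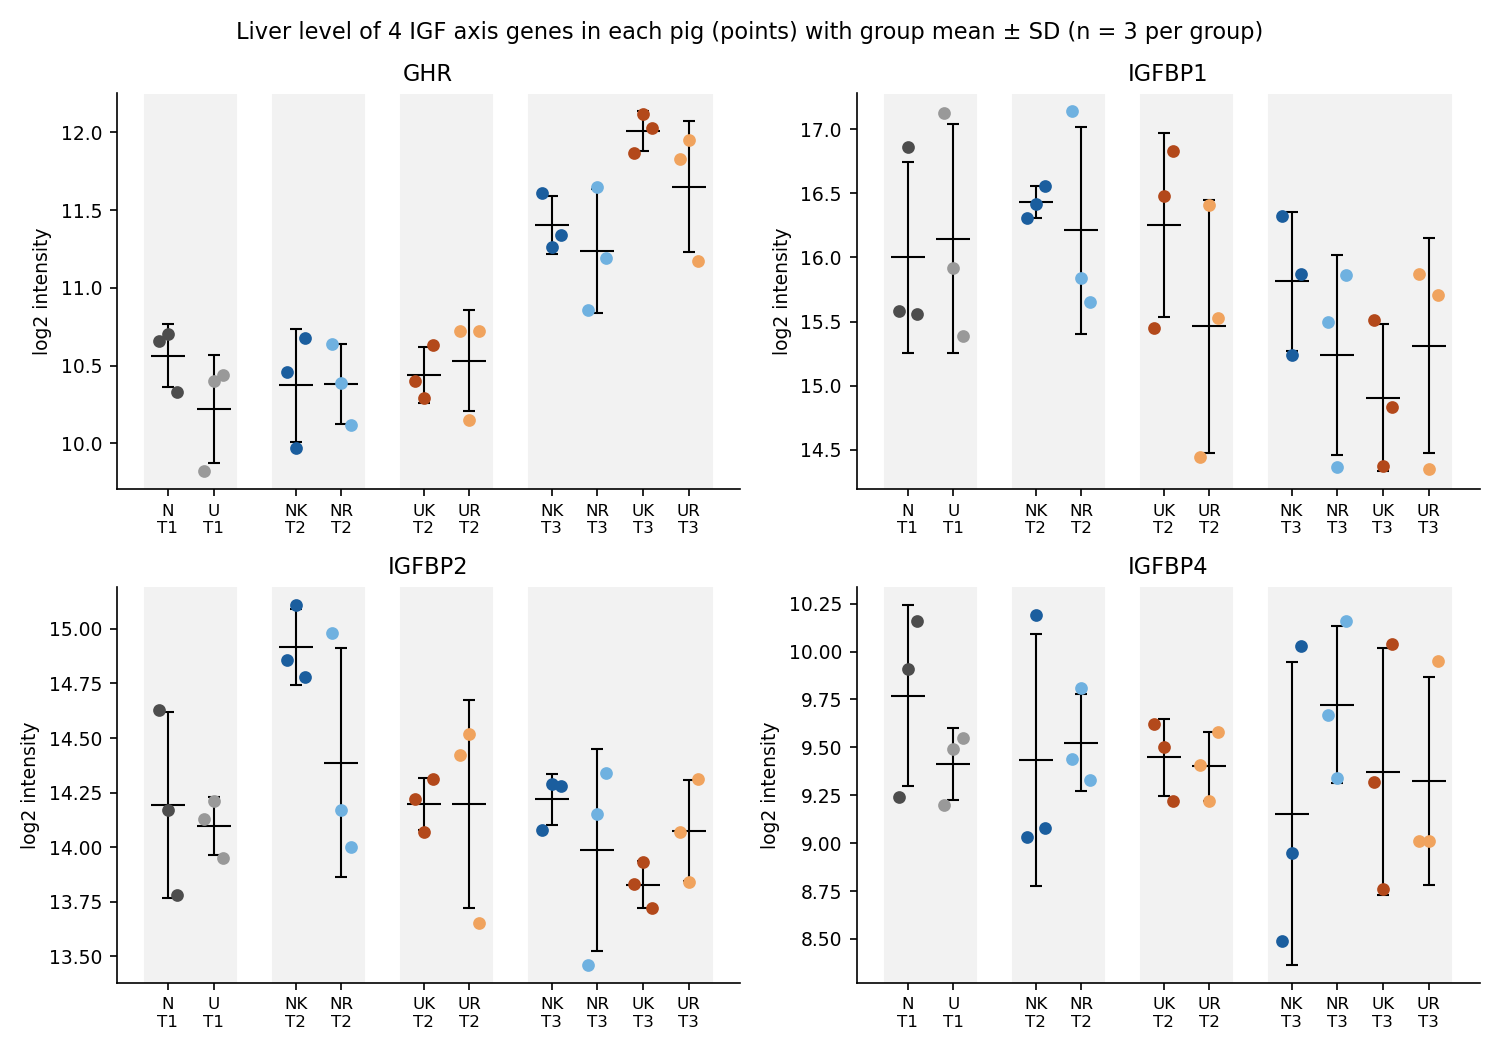
Log2 intensity of GHR, IGFBP1, IGFBP2 and IGFBP4 (vertical axes) in each of the 30 pigs, by group (horizontal axes). Points are pigs, black bars are group means ± SD (n = 3), and grey panels mark the 4 sets within which values can be compared. GHR in the 3 UK pigs of T3 lay at 11.87 to 12.12, above the 3 NK pigs at 11.26 to 11.61, while most other groups of a set overlapped.

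GHR, the receptor through which growth hormone acts on hepatocytes, differed little between restricted and control pigs at T2 and most by birth weight after refeeding. In control pigs at T3 its log2 intensity was 11.61, 11.26 and 11.34 in the 3 NK pigs and 11.87, 12.12 and 12.03 in the 3 UK pigs. Every UK pig was above every NK pig. The group means were 11.40 ± 0.18 (SD, n = 3) in NK and 12.01 ± 0.13 (SD, n = 3) in UK. On the linear scale these were 2726 ± 358 and 4126 ± 360 (SD, n = 3). Of all rows, 2.28% had UK wholly above NK. The difference was 0.60 ± 0.26 (SE) on the log2 scale, which is 1.52-fold, with a 95% interval of 0.02 to 1.18. Its unadjusted p in limma was 0.0432 and its adjusted p was 1, so it did not pass the test.

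The GHR difference had the same direction on both slides that held the pair and in each of its 3 probes. Within slide 4, 1 UK array lay 0.68 above the mean of 2 NK arrays, and within slide 6, 1 UK array lay 0.69 above 1 NK array. With slide as a block the difference was 0.70 ± 0.28 (SE), and dropping each of the 6 arrays in turn gave 0.53 to 0.71. Without replicate 1 of NK, the only array of scan 3, it was 0.71. The 3 probes taken alone, from the scanner signals scaled to each array's 75th percentile, gave 0.47, 0.65 and 0.36 in the order printed above.

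In the formerly restricted pigs of T3, GHR was 10.86, 11.65 and 11.19 in NR and 11.83, 11.95 and 11.17 in UR. Replicate 3 of UR lay among the NR pigs, so the groups overlapped. The difference of UR from NR was 0.41 ± 0.26 (SE), with an interval of -0.17 to 0.99, and 0.17 ± 0.35 (SE) with slide as a block. Within slide 6 it was -0.03. Former restriction went with -0.17 ± 0.26 (SE) in normal birth weight pigs and -0.36 ± 0.26 (SE) in low birth weight pigs. The difference between these was -0.19 ± 0.37 (SE), with an interval of -1.01 to 0.63. Within T3 the order of the group means was UK at 12.01, UR at 11.65, NK at 11.40 and NR at 11.24, and each neighbouring pair in this order overlapped. These T3 comparisons share groups, so that a high or low group enters several of them.

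At T2 the GHR ranges of restricted and control pigs overlapped in both birth weights. NK pigs had 10.46, 9.97 and 10.68 and NR pigs 10.64, 10.39 and 10.12, with a difference of 0.01 ± 0.23 (SE) and an interval of -0.50 to 0.52. UK pigs had 10.40, 10.29 and 10.63 and UR pigs 10.72, 10.15 and 10.72, with a difference of 0.09 ± 0.23 (SE) and an interval of -0.42 to 0.61. Averaged over the birth weights, the restriction difference was 0.05 ± 0.16 (SE), with an interval of -0.31 to 0.41. Among the 4 genes this was the narrowest interval for restriction at T2. The effect of restriction differed between birth weights by 0.08 ± 0.33 (SE).

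Before restriction GHR was 10.66, 10.70 and 10.33 in N and 9.82, 10.40 and 10.44 in U. The groups overlapped, with replicate 1 of U the lowest pig. U differed from N by -0.34 ± 0.22 (SE), with an interval of -0.89 to 0.21. The sign was the opposite of that in the control pigs of T3. On slide 1 the difference was -0.57 with 2 arrays each, and on slide 2 it was 0.11 with 1 array each.

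**Figure D2:**
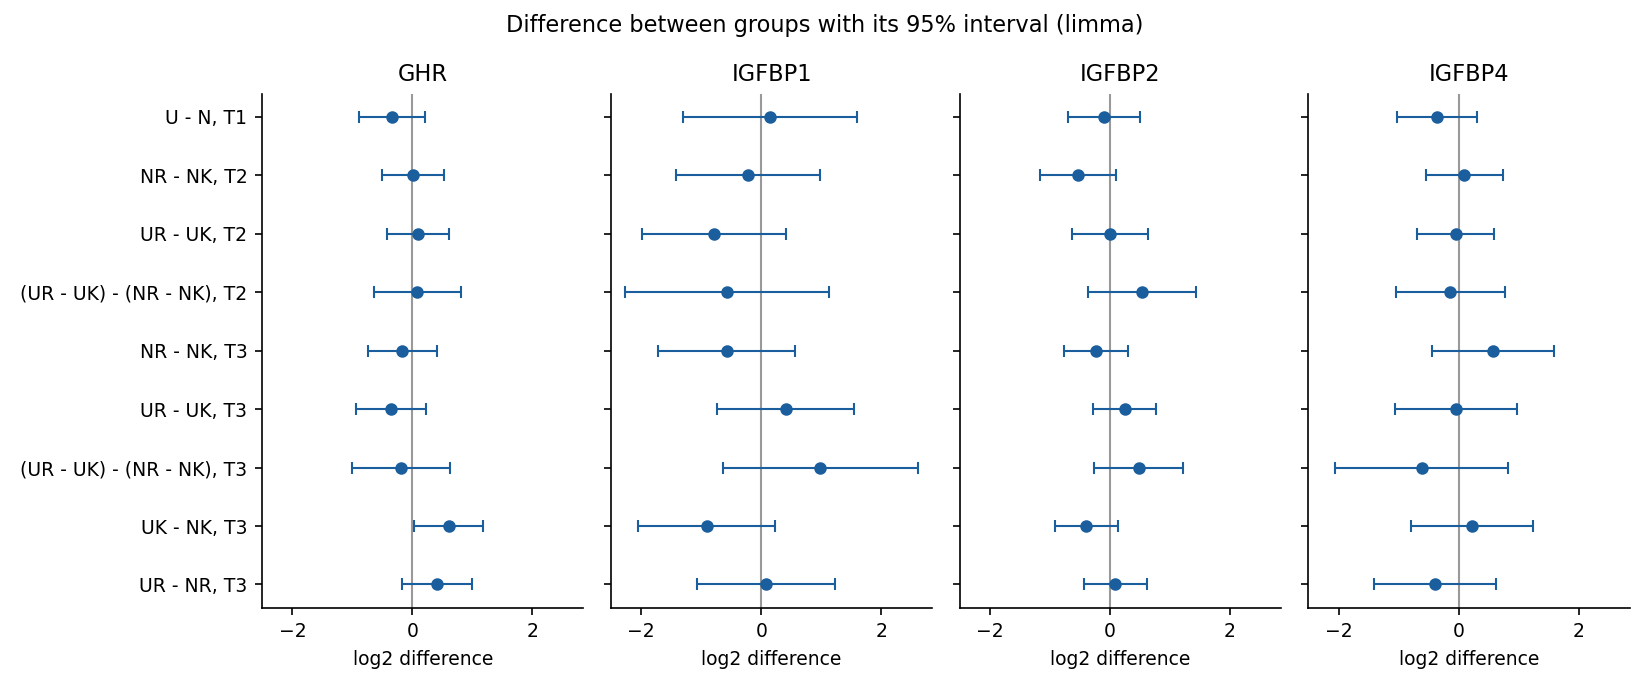
Differences between groups on the log2 scale (horizontal axes) for GHR, IGFBP1, IGFBP2 and IGFBP4, 1 comparison per line, with points at the limma estimate and bars for its 95% interval. All intervals reach across 0 except that of GHR for UK minus NK at T3, which runs from 0.02 to 1.18 and did not pass the adjusted test.

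IGFBP1, a binding protein that responds rapidly to insulin and fasting, varied most of the 4 genes between pigs of the same group. Its pooled SD within groups was 0.823 on the log2 scale at T1, 0.736 at T2 and 0.695 at T3. At T1 92.3% of all rows had a smaller SD, at T2 91.3% and at T3 79.6%. Among the 9932 rows above the median brightness the shares were 95.8%, 97.3% and 84.7%. Within a set, the highest pig was 3.34 times the lowest at T1, 2.79 times in normal and 5.26 times in low birth weight pigs at T2, and 3.93 times at T3. In the highest pig of T3, replicate 1 of NK, the third probe carried the row in place of the second. All 3 of its probes showed these differences between pigs, since their correlations over the arrays, centred within set, lay between 0.907 and 0.967 (n = 30). All of these arrays are shared by the probes, and the values describe the spread of the signal without saying what it came from.

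Under restriction, both restricted groups had the lower mean of IGFBP1, and neither difference passed the test. NK pigs had 16.31, 16.42 and 16.56 and NR pigs 17.14, 15.84 and 15.65, so that the NK pigs lay close together while the NR pigs surrounded them. The difference was -0.22 ± 0.54 (SE), with an interval of -1.42 to 0.98. UK pigs had 15.45, 16.48 and 16.83 and UR pigs 14.44, 16.41 and 15.53. Replicate 1 of UR was the lowest of these pigs, and the groups overlapped. The difference was -0.79 ± 0.54 (SE), with an interval of -1.99 to 0.41 and a limma adjusted p of 1. It was 0.97 within slide 1 and -2.04 within slide 2, with 1 array of each group on each slide, and -0.36 ± 0.74 (SE) with slide as a block. Single arrays moved it from -0.28 (without replicate 1 of UR) to -1.27 (without replicate 2 of UR). The average of both birth weights was -0.51 ± 0.38 (SE), with an interval of -1.35 to 0.34. With slide as a block it was -0.27, and without replicate 1 of UR it was -0.25. The interval includes a decrease of more than 1 log2 unit and, on the other side, a rise of up to 0.34.

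After refeeding, IGFBP1 was 16.32, 15.24 and 15.87 in NK and 15.51, 14.37 and 14.83 in UK. The ranges overlapped, and UK lay lower by mean. The difference was -0.91 ± 0.52 (SE), or 0.532-fold, with an interval of -2.06 to 0.24 and a limma adjusted p of 1. Within slide 4 it was -1.41 and within slide 6 it was -1.05, with slide as a block -1.09 ± 0.53 (SE), and without replicate 1 of NK -0.65. The 3 probes taken alone gave -0.97, -0.55 and -0.59. On replicate 1 of NK the third probe, at 16.25, carried the row, while the second read 15.22. In formerly restricted pigs, NR had 15.50, 14.36 and 15.86 and UR had 15.87, 14.35 and 15.71, and these nearly coincided, with a difference of 0.07 ± 0.52 (SE). Former restriction went with -0.58 ± 0.52 (SE) in normal and 0.41 ± 0.52 (SE) in low birth weight pigs. The difference between these was 0.98 ± 0.73 (SE), with an interval of -0.64 to 2.61. For former restriction the 3 probes alone gave -0.59, -0.14 and -0.20 in normal birth weight pigs. In low birth weight pigs they gave 0.38, 0.41 and 0.445. By group mean the order was NK at 15.81, UR at 15.31, NR at 15.24 and UK at 14.90, with each neighbouring pair overlapping.

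At T1 IGFBP1 was 15.58, 16.86 and 15.56 in N and 17.13, 15.92 and 15.39 in U. Each group had 1 pig well above its other pigs. U differed from N by 0.14 ± 0.58 (SE), with an interval of -1.30 to 1.59. The interval covers changes of more than 1 log2 unit in either direction.

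IGFBP2, which in mammals is abundant in early life and rises with undernutrition, showed its largest difference under restriction in normal birth weight pigs. NK pigs had 14.86, 15.11 and 14.78 and NR pigs 14.98, 14.17 and 14.00. NR replicates 2 and 3 lay below all NK pigs, and NR replicate 1 lay among them. The difference was -0.53 ± 0.28 (SE), or 0.691-fold, with an interval of -1.16 to 0.10 and a limma adjusted p of 0.708. It was -0.78 within slide 5, from 2 NK arrays and 1 NR array, and -0.42 ± 0.25 (SE) with slide as a block. It was -0.83 without replicate 1 of NR and -0.34 without replicate 3 of NR. In low birth weight pigs, UK had 14.22, 14.07 and 14.31 and UR had 14.42, 14.52 and 13.65. Replicates 1 and 2 of UR lay above the UK pigs and replicate 3 below them. The difference was -0.0012 ± 0.28 (SE), with an interval of -0.63 to 0.63. Tested directly, the restriction effect differed between birth weights by 0.53 ± 0.40 (SE), with an interval of -0.36 to 1.43 and a limma adjusted p of 1. The average over the birth weights was -0.27 ± 0.20 (SE), with an interval of -0.71 to 0.18. With slide as a block this average was -0.05 ± 0.18 (SE), and it ran from -0.42 (without NR replicate 1) to -0.13 (without UR replicate 3) when 1 array was left out.

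At T3 the IGFBP2 row was lower in every UK pig than in every NK pig, without passing the test. NK pigs had 14.08, 14.29 and 14.28 and UK pigs 13.83, 13.93 and 13.72. Of all rows, 5.18% had UK wholly below NK. The means were 14.22 ± 0.12 and 13.83 ± 0.11 (SD, n = 3). The difference was -0.39 ± 0.24 (SE), or 0.762-fold, with an interval of -0.92 to 0.13, and the limma adjusted p was 1. Within slides 4 and 6 it was -0.25 and -0.56, and dropping each of the 6 arrays in turn gave -0.46 to -0.34. The 3 probes taken alone gave 0.19, -0.79 and -0.68, so that the first had the opposite sign, and the groups were apart in the second probe and overlapped in the others. In the first probe, replicate 1 of NK lay at 13.16, quantile normalized within set. The other NK pigs lay at 15.66 and 15.44, above all UK pigs at 14.99, 15.38 and 14.57. In the second probe, replicate 1 of NK lay at 15.46 and the other NK pigs at 14.26 and 14.25. The third probe, at 14.05, carried the row on replicate 1 of NK. After normexp background correction of the scanner signals, chosen after the data were seen, the difference was -0.07 ± 0.27 (SE), the smallest among the settings run.

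In formerly restricted pigs of T3, NR had 13.46, 14.15 and 14.34 and UR had 14.07, 13.84 and 14.31, with a difference of 0.09 ± 0.24 (SE). Former restriction went with -0.23 ± 0.24 (SE) in normal and 0.25 ± 0.24 (SE) in low birth weight pigs, and these differed by 0.48 ± 0.34 (SE), with an interval of -0.26 to 1.22. The group means ran from NK at 14.22 through UR at 14.07 and NR at 13.99 to UK at 13.83. Neighbouring groups in this order overlapped. The SD of IGFBP2 was 0.108 to 0.173 in the 4 control groups of T2 and T3 and 0.231 to 0.525 in the 4 restricted or formerly restricted groups. This difference in spread was noticed after the values were seen and was not tested. At T1 the SD was 0.427 in N and 0.134 in U, so that a wide spread also occurred in pigs that had not been restricted. In NK at T3 the second probe, which carried the median on 29 of 30 arrays, read 15.46, 14.26 and 14.25. On replicate 1 the third probe, at 14.05, carried the row instead. The SD of NK at T3 thus draws on readings of different probes. Before restriction N pigs had 14.63, 14.17 and 13.78 and U pigs 14.13, 14.21 and 13.95, all within the range of N. U differed from N by -0.10 ± 0.24 (SE), with an interval of -0.70 to 0.50.

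**Figure D3:**
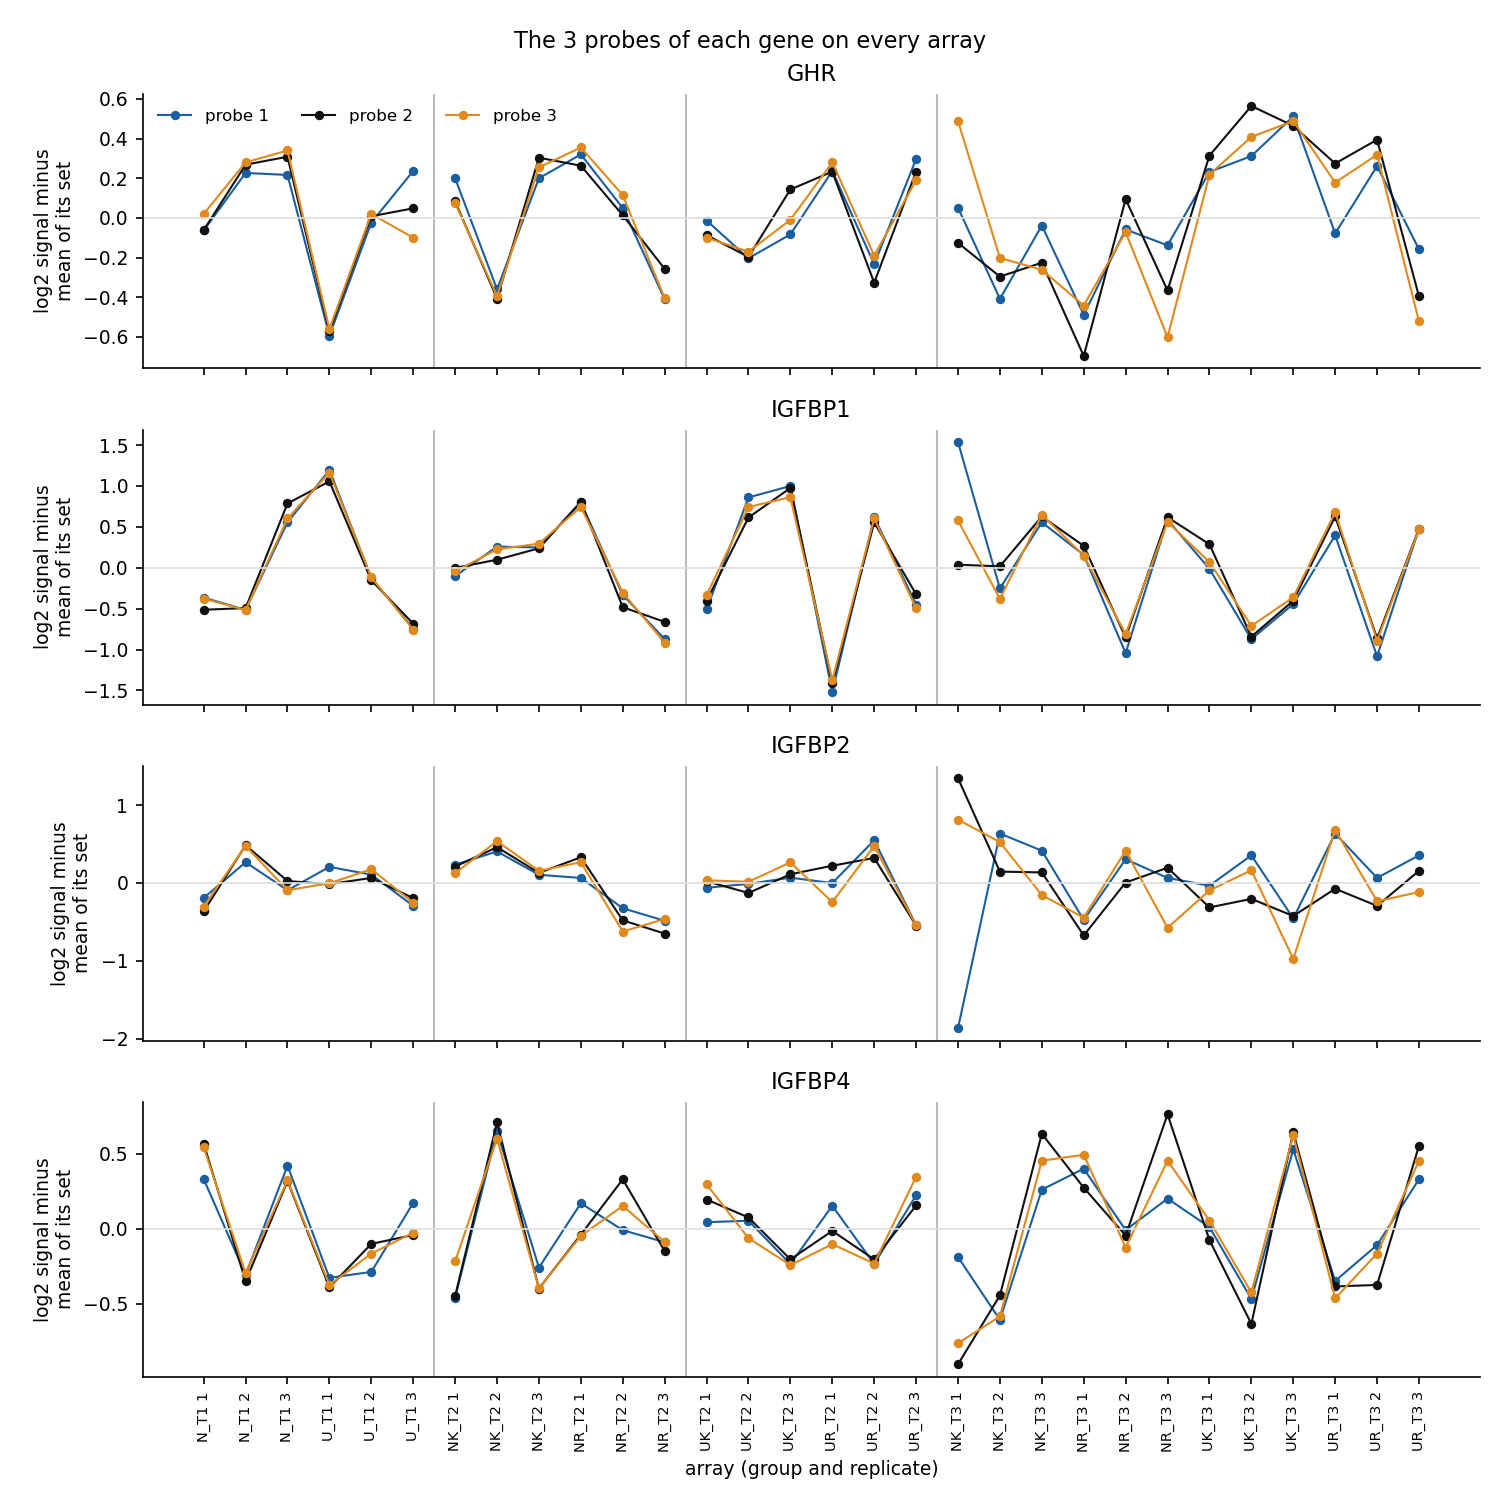
Log2 signal of the 3 probes of each gene, quantile normalized within set and centred on the mean of the set (vertical axes), on each of the 30 arrays (horizontal axis, numbered as the scanner files are). Lines join arrays of a set and carry no order. The probes run together on most arrays, and on replicate 1 of NK at T3 the first IGFBP2 probe lay far below the other two.

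The 3 probes of IGFBP2 agreed less well than those of the other genes, and a single array made most of that difference. Over all 30 arrays the first probe correlated with the second at -0.073 and with the third at 0.252, and the second with the third at 0.716. Without replicate 1 of NK at T3 the same correlations were 0.823, 0.871 and 0.671 (n = 29). On that array the first probe minus the second was -2.30 on the log2 scale, where the median over all arrays was 1.5. For IGFBP1 the first probe minus the second was 1.13 there, against a median of -0.57. On that array 55.0% of probes were well above background and 94 spots carried an outlier mark. The rows take the median of the 3 probes, and without this array the IGFBP2 difference of UK from NK was -0.46, against -0.39 with it. Over all arrays the correlations were 0.836 to 0.886 for GHR and 0.846 to 0.952 for IGFBP4.

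IGFBP4, an inhibitory binding protein made in the liver and many other tissues, differed at T3 more by slide than by group. Its values were 8.49, 8.95 and 10.03 in NK, 9.67, 9.34 and 10.16 in NR, 9.32, 8.76 and 10.04 in UK, and 9.01, 9.01 and 9.95 in UR. Replicate 3 was the highest pig of each group, and these 4 arrays shared slide 6 and scan 4. They lay at 9.95 to 10.16, and the other 8 arrays at 8.49 to 9.67. In a limma fit with a mean per group, the arrays of slide 6 were higher by 0.98 ± 0.16 (SE), with an adjusted p of 0.00216. This fit was chosen after the data were seen, and in it 28.9% of all rows were called, while 8.84% of rows had all slide 6 arrays above the others. GHR, IGFBP1 and IGFBP2 were not called in it, with differences of -0.22, 0.38 and 0.20 and adjusted p-values of 0.418, 0.505 and 0.390. The slide, the scan and the replicate number cannot be told apart here, since slide 6 held replicate 3 of all 4 groups.

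**Figure D4:**
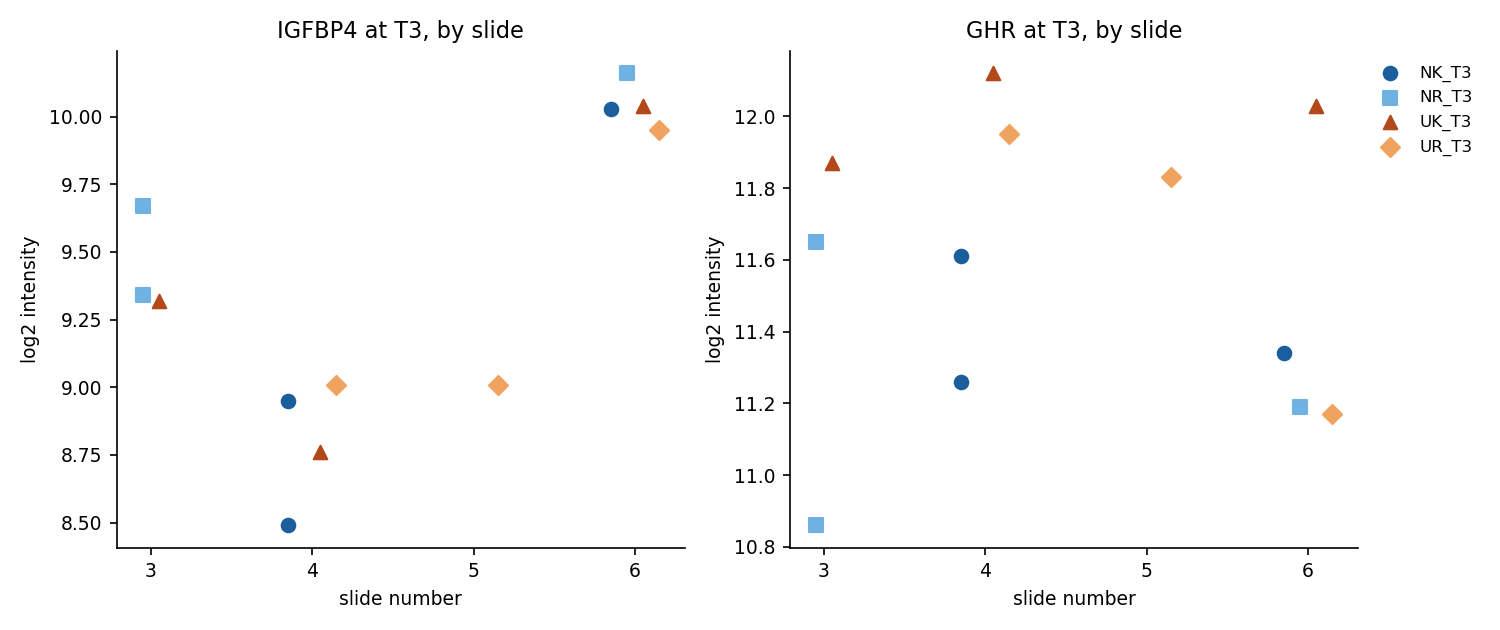
Log2 intensity (vertical axes) of IGFBP4 and GHR on the 12 arrays of T3 by slide number (horizontal axes), with a symbol and colour for each group. IGFBP4 was at 9.95 to 10.16 on slide 6 in all 4 groups and at 8.49 to 9.67 on the other slides, while GHR was higher in UK than in NK on both slides that held the pair.

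The group differences of IGFBP4 at T3 were smaller than that between the slide 6 arrays, all of replicate 3, and the others. Former restriction went with 0.57 ± 0.46 (SE) in normal birth weight pigs, with an interval of -0.45 to 1.59, and with 0.22 ± 0.25 (SE) once slide was a block. Within slide 6 the NR array lay 0.13 above the NK array. Leaving out 1 array gave 0.24 (without replicate 1 of NK) to 1.0 (without replicate 3 of NK). In low birth weight pigs it was -0.05 ± 0.46 (SE), or 0.09 ± 0.22 (SE) with the block, and the difference between the birth weights was -0.62 ± 0.65 (SE). UK differed from NK by 0.22 ± 0.46 (SE), or by 0.04 ± 0.205 (SE) with slide as a block, and UR from NR by -0.40 ± 0.46 (SE), or -0.09 ± 0.26 (SE) with the block. With slide as a block the errors were smaller in each of these comparisons.

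At T2 IGFBP4 was 9.03, 10.19 and 9.08 in NK and 9.44, 9.81 and 9.33 in NR, and 9.62, 9.50 and 9.22 in UK and 9.41, 9.22 and 9.58 in UR. Replicate 2 of NK stood more than 1 log2 unit above the other NK pigs, and the groups overlapped. The restriction differences were 0.09 ± 0.29 (SE) and -0.05 ± 0.29 (SE), and their average was 0.02 ± 0.20 (SE), with an interval of -0.43 to 0.48. At T1 it was 9.24, 9.91 and 10.16 in N and 9.20, 9.49 and 9.55 in U. U differed from N by -0.36 ± 0.27 (SE), with an interval of -1.03 to 0.31, and by -0.23 and -0.61 within slides 1 and 2.

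Whether the 4 genes varied together across pigs was tested by correlating their values centred within set, in 6 pairs over 30 pigs, with 100000 permutations within set. None passed after Benjamini-Hochberg adjustment. The largest by Pearson's r was IGFBP1 with GHR, at a Pearson r of -0.347 (two-sided permutation p = 0.069, adjusted 0.28) and a Spearman rho of -0.271 (permutation p = 0.16, adjusted 0.32). Without the 2 pigs farthest in IGFBP1, r was -0.270. Within the sets r was -0.428 at T1, 0.548 and -0.504 in normal and low birth weight pigs at T2, and -0.511 at T3. IGFBP4 with GHR, the largest by Spearman's rho, gave an r of -0.319 (permutation p = 0.14, adjusted 0.28) and a rho of -0.290 (permutation p = 0.16, adjusted 0.32). Without the 2 farthest pigs r was -0.284, and within the sets it ran from -0.657 to 0.317. IGFBP1 with IGFBP2 gave an r of 0.296 (permutation p = 0.12, adjusted 0.28) and a rho of 0.282 (permutation p = 0.14, adjusted 0.32). Without the 2 farthest pigs r was 0.372. It was 0.836 in normal birth weight pigs at T2 and between 0.044 and 0.313 in the other sets. The sign thus changed between sets for both pairs with GHR. The other 3 pairs had an r between -0.0716 and -0.00947.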

How the data were processed

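Liver RNA of 30 pigs was labelled with Cy3 and hybridised to 1-colour Agilent arrays of 60900 probes, per the labels' protocols and the file headers. The deposited scanner files hold processed signal intensities that, per the file headers, Feature Extraction 10.5.1.1 wrote. The deposited table holds intensities of 19864 rows, whose making is not given in the sources used here. Of these, 19025 equalled, up to a root mean square difference of 0.05 in log2 across 24 arrays, the median of 3 consecutive probes after quantile normalization of the processed signal within 4 sets of arrays. Another 330 equalled only a single probe.

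The log2 of the table, without a pseudocount or filter, was fitted in limma 3.58.1 (R 4.3.3) with a mean per group, apart for T1 (6 arrays), T2 (12) and T3 (12), and for T2 with T3 (24). P-values are two-sided, Benjamini-Hochberg adjusted over all rows, and called under 0.05. With 3 arrays per group, their number limits the precision. The script was tested on simulated data. Python 3.11.15 (numpy 2.4.6, pandas 2.3.3, scipy 1.17.1, matplotlib 3.10.9) made the other values.

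The named genes were all members of the list with a row, whatever their change. Members, lists and comparisons were chosen with earlier results of these data known. Lists of other pathway genes and of cell type markers gave no result, since 0 of their genes could be placed on a row. Slide and scan, from the scanner file headers, are written as slides 1 to 6 and scans 1 to 4. For N at T1, the slide is that of the array whose values a column held.

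The labels say that piglets were selected from a litter but tie no replicate number to one. Deviations from the group mean correlated, for same-numbered arrays, at 0.355, 0.355 and 0.247 between N and U at T1 by scanner file number. Every such correlation was also above 0.1 for NK with NR, UK with UR, NR with UR and NR with UK at T3. The same held for NK with UK and NR with UR at T2. At T3 the replicate 3 arrays also shared slide 6 and scan 4, so their correlations cannot tell littermates from a shared slide. For NK with UK at T3 the lowest was 0.0797, for NK with NR at T2 0.0888 and for UK with UR at T2 0.0854. Alternatives tried were other scalings, log2(value + 50), a filter on dim rows, slide, scan or replicate blocks, other samples in the fit, array weights, the scanner signals with and without normexp correction, and leaving out each array.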

Additional observations from a re-analysis of the deposited data

How the results depend on the processing

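Of the 48 group differences of the 4 genes within the table, 40 were rerun under other settings, and none of these was called, with the smallest limma adjusted p at 0.423. The average at T3 and the change from T2 to T3 were rerun as counts only. Of 468 values under other settings, 448 kept their direction and 20 reversed. With slide as a block, values turned to -0.09 (GHR, NR minus NK, T2), 0.31 (IGFBP2, UR minus UK, T2), -0.00443 (IGFBP4, T2 average), 0.04 (GHR, NR minus NK, T3), 0.09 (IGFBP4, UR minus UK, T3) and -0.04 (IGFBP2, UR minus NR, T3). With array weights they turned to -0.35 (IGFBP1, T1), 0.04 (IGFBP2, UR minus UK, T2) and -0.01 (IGFBP4, T2 average). With all columns normalized together they turned to 0.00937 (IGFBP2, UR minus UK, T2) and -0.00529 (IGFBP1, UR minus NR, T3). The single scanner probe gave -0.03 for GHR (NR minus NK, T2) and, after normexp, -0.03 (UR minus UK, T2) and -0.09 (low minus normal, T2). The scanner median of 3 probes gave -0.03 for GHR (NR minus NK, T2) and 0.05 for IGFBP2 (UR minus UK, T2). After normexp it gave 0.02 for IGFBP2 and -0.03 for GHR (UR minus UK, T2), -0.09 for GHR (low minus normal, T2) and 0.10 for IGFBP2 (NR minus NK, T3). The cause was not tested.

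Leaving out 1 array reversed 45 of 312 values, in 19 differences. At T1 the ranges were -0.35 to 0.58 for IGFBP1 and -0.30 to 0.12 for IGFBP2. At T2 they were -0.11 to 0.47 (IGFBP4), -0.19 to 0.17 (GHR) and -0.68 to 0.06 (IGFBP1) when NR was compared with NK. For UR minus UK the ranges were -0.16 to 0.27 (IGFBP2), -0.16 to 0.04 (IGFBP4) and -0.00334 to 0.28 (GHR). For the average they were -0.08 to 0.21 (IGFBP4) and -0.05 to 0.15 (GHR), and for low minus normal -0.52 to 0.06 and -0.07 to 0.28. At T3 they were -0.41 to 0.03 (IGFBP2) and -0.38 to 0.02 (GHR) for NR minus NK, -0.36 to 0.29 (IGFBP4) for UR minus UK and -0.38 to 0.05 (GHR) for low minus normal. For UK minus NK IGFBP4 ranged from -0.12 to 0.66, and for UR minus NR IGFBP2 from -0.17 to 0.27 and IGFBP1 from -0.36 to 0.56.

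Counts of called rows, 0 in each comparison, moved to 2 (NR minus NK, T2) and 1 (UK minus NK, T3) with all 30 arrays in the fit. The T2 average moved to 1 with log2(value + 50) and with the scanner probe with or without normexp, where probes are counted. The T2 difference between birth weights moved to 1 with the scanner median of 3 probes, and NR minus NK at T3 to 1 with array weights. Leaving out 1 array gave 0 to 3 calls for NR minus NK at T2 (1 without NR replicate 1, 3 without NR replicate 2). It gave 0 to 1 for the T2 and T3 differences between birth weights, for UR minus UK and UK minus NK at T3 and for the change from T2 to T3, and 0 in the others. Counts at an unadjusted p under 0.05 ranged over the settings from 192 to 4730, where the single scanner probe settings count probes and not rows. For NR minus NK at T2 the highest count, 3721, was one of probes. The replicate block changed no call. UK minus NK at T3 stayed at 0.60 for GHR with it, with a limma adjusted p of 0.748 and 0 rows called. The single scanner probe could not be run for IGFBP1 and IGFBP2, and a scan block not for T1.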

Other observations

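Outside the comparisons above, GHR was higher at T3 than at T2. The authors' table cannot be compared across time points, so the median of a gene's 3 probes was taken from the scanner signals, as log2 relative to each array's 75th percentile, in a fit of all 30 arrays that was chosen after the data were seen. On this scale GHR was 1.66 ± 0.30 (SD, n = 6) at T1, 1.68 ± 0.28 (SD, n = 6) in controls and 1.70 ± 0.32 (SD, n = 6) in restricted pigs at T2. At T3 it was 2.74 ± 0.35 (SD, n = 6) in controls and 2.49 ± 0.44 (SD, n = 6) in formerly restricted pigs. All 6 control pigs of T3 (2.32 to 3.19) were above all 6 of T2 (1.16 to 1.96). The control difference was 1.06 ± 0.18 (SE), with a limma adjusted p of 0.00271, in a comparison that called 3.19% of 19025 rows.

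The GHR difference between T2 and T3 was also called in controls with slide (1.10, limma adjusted p = 0.0178) or scan (1.12, limma adjusted p = 0.00579) as a block, after normexp correction and quantile normalization (1.09, limma adjusted p = 0.000683), and in a fit of T2 and T3 only (limma adjusted p = 0.0043). Leaving out any of the 12 arrays gave 0.95 to 1.13, with limma adjusted p-values from 0.00426 to 0.0115. The 3 probes alone gave 1.08, 1.03 and 1.14. Slides 1 and 2 held no array of T3 and slide 6 none of T2. On slide 4, 3 control arrays of T3 lay 0.77 above 1 control array of T2. In restricted pigs the difference was 0.78 ± 0.18 (SE), with a limma adjusted p of 0.0501 against a background of 0.515% of rows. It was called with scan as a block (limma adjusted p = 0.0257) and after normexp correction (limma adjusted p = 0.0256). It was not called with slide as a block (limma adjusted p = 0.057) or in the fit of T2 and T3 only (limma adjusted p = 0.0739). Leaving out 1 array gave 0.68 to 0.91, with limma adjusted p-values from 0.0342 to 0.143. It was called in 2 of these 12 fits, without replicate 1 of NR (0.0385) and without replicate 3 of UR (0.0342) at T3. Between arrays of restricted and formerly restricted pigs on the same slide it was 0.65 on slide 3 (2 arrays each) and 1.35 on slide 5 (1 array each).

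Of the binding proteins, IGFBP2 was called lower at T3 in controls, and the call depended on the setting. The difference was -0.77 ± 0.20 (SE), with a limma adjusted p of 0.0331. It was also called after normexp correction (-0.89, limma adjusted p = 0.0127) and in the fit of T2 and T3 only (limma adjusted p = 0.0417). It was not called with slide (-0.58, limma adjusted p = 0.171) or scan (-0.53, limma adjusted p = 0.167) as a block. Leaving out 1 array gave -0.83 to -0.71, with limma adjusted p-values from 0.0352 to 0.073. The call was kept in 2 of these 12 fits, without replicate 2 or replicate 3 of NK at T3. The 3 IGFBP2 probes alone gave -1.41, -0.56 and -1.2 in controls, so that the second, which mostly carried the row, changed least. IGFBP1 and IGFBP4 were not called in controls, with differences of -1.27 (limma adjusted p = 0.0899) and -0.42 (limma adjusted p = 0.46). In restricted pigs IGFBP1, IGFBP2 and IGFBP4 differed by -0.83, -0.52 and -0.16, with limma adjusted p-values of 0.488, 0.299 and 0.93. Age and any change of diet between T2 and T3 cannot be told apart. The arrays of T2 and T3 also lay only partly on the same slides and scans.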
